A study of Mus musculus with 42 samples.

Results

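The tRNA pool of mouse CD4 T cells was compared between 6 h of stimulation and rest (0 h). The comparison was defined by its time labels, and it takes 4 of the 8 tRNA-seq libraries, or 4 of the 42 samples of the series. Both groups were naive CD4 T cells that a kit had isolated from the spleens of wild-type mice, with an age of 8 weeks given in the growth protocol. The 6 h cells had been stimulated in X-VIVO medium through the T cell receptor and CD28, with antibodies to CD3 (5 µg/ml) and CD28 (2 µg/ml) fixed to the plate, and the 0 h cells were the resting cells. Each group had 2 libraries, and the labels do not say whether these came from separate animals, so p-values measure the spread between libraries, which may be technical. The rest of the series concerns a knockout of the tRNA methyltransferase Trmt61a, and no cell of the comparison carried it.

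Small RNA of less than 200 nucleotides was deacylated, treated with the demethylase AlkB and sequenced. AlkB removes the methyl group of N1-methyladenosine (m1A), which otherwise blocks reverse transcription of tRNA. The totals were 81153443 and 89534321 reads in the 6 h libraries, against 77364379 and 67261117 reads in the 0 h libraries. Reads were counted on 242 reference sequences, of which 220 were tRNAs, 7 ribosomal RNAs (rRNAs) and 15 small nuclear or nucleolar RNAs. The 220 tRNA references fell into 51 isoacceptors. No reference was an mRNA, so neither the identity of the cells nor their activation could be checked in these libraries. At this depth the libraries of a group differed by far more than counting error, and the spread between libraries sets the precision.

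A tRNA carries an amino acid to the ribosome and reads a codon with its 3-base anticodon. Isoacceptors are tRNAs that carry the same amino acid but have different anticodons, and here each anticodon was counted as an isoacceptor. Isodecoders share an anticodon but differ elsewhere in their sequence. RNA polymerase III transcribes tRNAs, 5S rRNA and the U6 small nuclear RNA. RNA polymerase I makes the 45S precursor of the 18S, 5.8S and 28S rRNAs, and RNA polymerase II makes the U1, U2, U3 and U5 RNAs. A naive T cell is small and makes little protein, and in the first hours after stimulation it begins to grow before it divides.

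tRNA took a larger share of the small RNA reads after 6 h of stimulation. The tRNA references held 87.1% and 83.0% of the library reads at 6 h, against 66.7% in each of the 0 h libraries. The means were 85.1% ± 2.93 at 6 h and 66.7% ± 0.0469 at 0 h (SD, n = 2 each), a difference of 18.4 percentage points and a ratio of 1.28. Both 6 h libraries lay above both 0 h libraries by far more than they lay apart. An exact two-sided permutation test returned p = 0.33, and 2 against 2 libraries allow no smaller value. At 18 and 48 h, which served here only to show the course, the tRNA share lay between 87.2% and 91.5%.

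The rRNA references held 7.79% and 10.8% of the reads at 6 h, against 20.9% and 21.6% at 0 h. The small nuclear and nucleolar references held 4.81% and 5.93% at 6 h, against 12.2% and 11.4% at 0 h. The ratio of 6 h to 0 h was 0.437 for rRNA and 0.455 for the small nuclear and nucleolar class, and the groups did not overlap in either (exact permutation test, two-sided, p = 0.33 for both). The libraries report shares of the reads and not amounts per cell. More tRNA per cell, less of the other RNAs per cell and a change in which cells were present cannot be told apart.

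**Figure D1:**
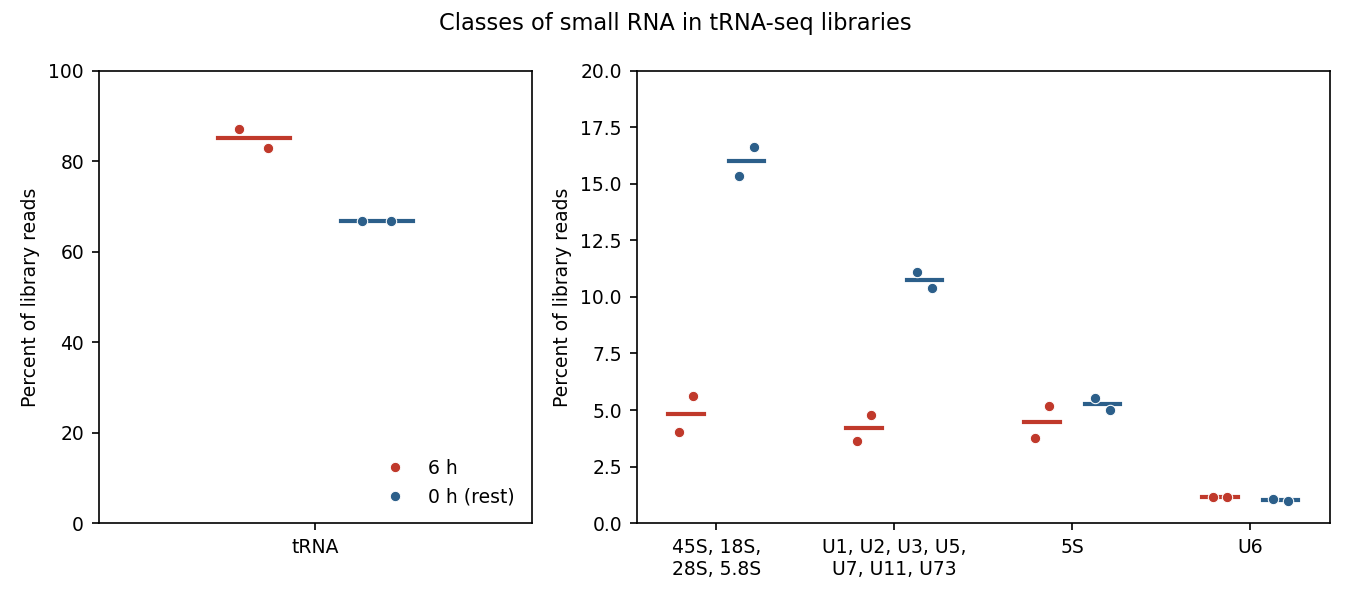
Percent of library reads in each class of reference, tRNA on the left and the other RNAs on the right, for the 2 libraries of 6 h (red) and the 2 of 0 h (blue). Points are libraries and bars are means. tRNA is higher at 6 h, the 45S-derived rRNAs and the RNAs made by polymerase II are lower, and 5S and U6 lie near their resting share.

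Because of this shift, each change is given on a pair of scales. The library scale divides by the library total, as the deposited RPM (reads scaled to a common library total) do. The tRNA scale divides by the tRNA reads with TMM factors, a correction meant to centre the changes of most tRNAs on 0. For 6 h against 0 h it moves every log2 fold change of an isoacceptor by about -0.37 relative to the library scale. A feature was called at an adjusted p under 0.05 in edgeR's quasi-likelihood test with Benjamini-Hochberg adjustment over all features tested. Features needed a mean of at least 10 RPM over the 8 libraries. That left 49 of the 51 isoacceptors and 190 of the 242 references, 168 of them tRNAs. The Sup-TCA and Sup-TTA isoacceptors fell below the filter, and all 52 references below it were tRNAs.

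On the library scale the increase ran through nearly the whole anticodon repertoire. Of the 49 isoacceptors, 42 (85.7%) rose and 0 fell, also at an unadjusted p under 0.05, and 7 were not called. The median log2 fold change was 0.38, with a range from -0.33 to 0.66. In RPM, 45 isoacceptors (91.8%) showed no overlap between the 2 libraries of 6 h and the 2 of 0 h. On the tRNA scale 0 isoacceptors (0%) were called in edgeR, where 10 had an unadjusted p under 0.05, the median log2 fold change was 0.02 and 46 of 49 lay within 0.3 of 0. DESeq2, which sets its own size factors, called 3 isoacceptors higher and 5 lower.

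**Figure D2:**
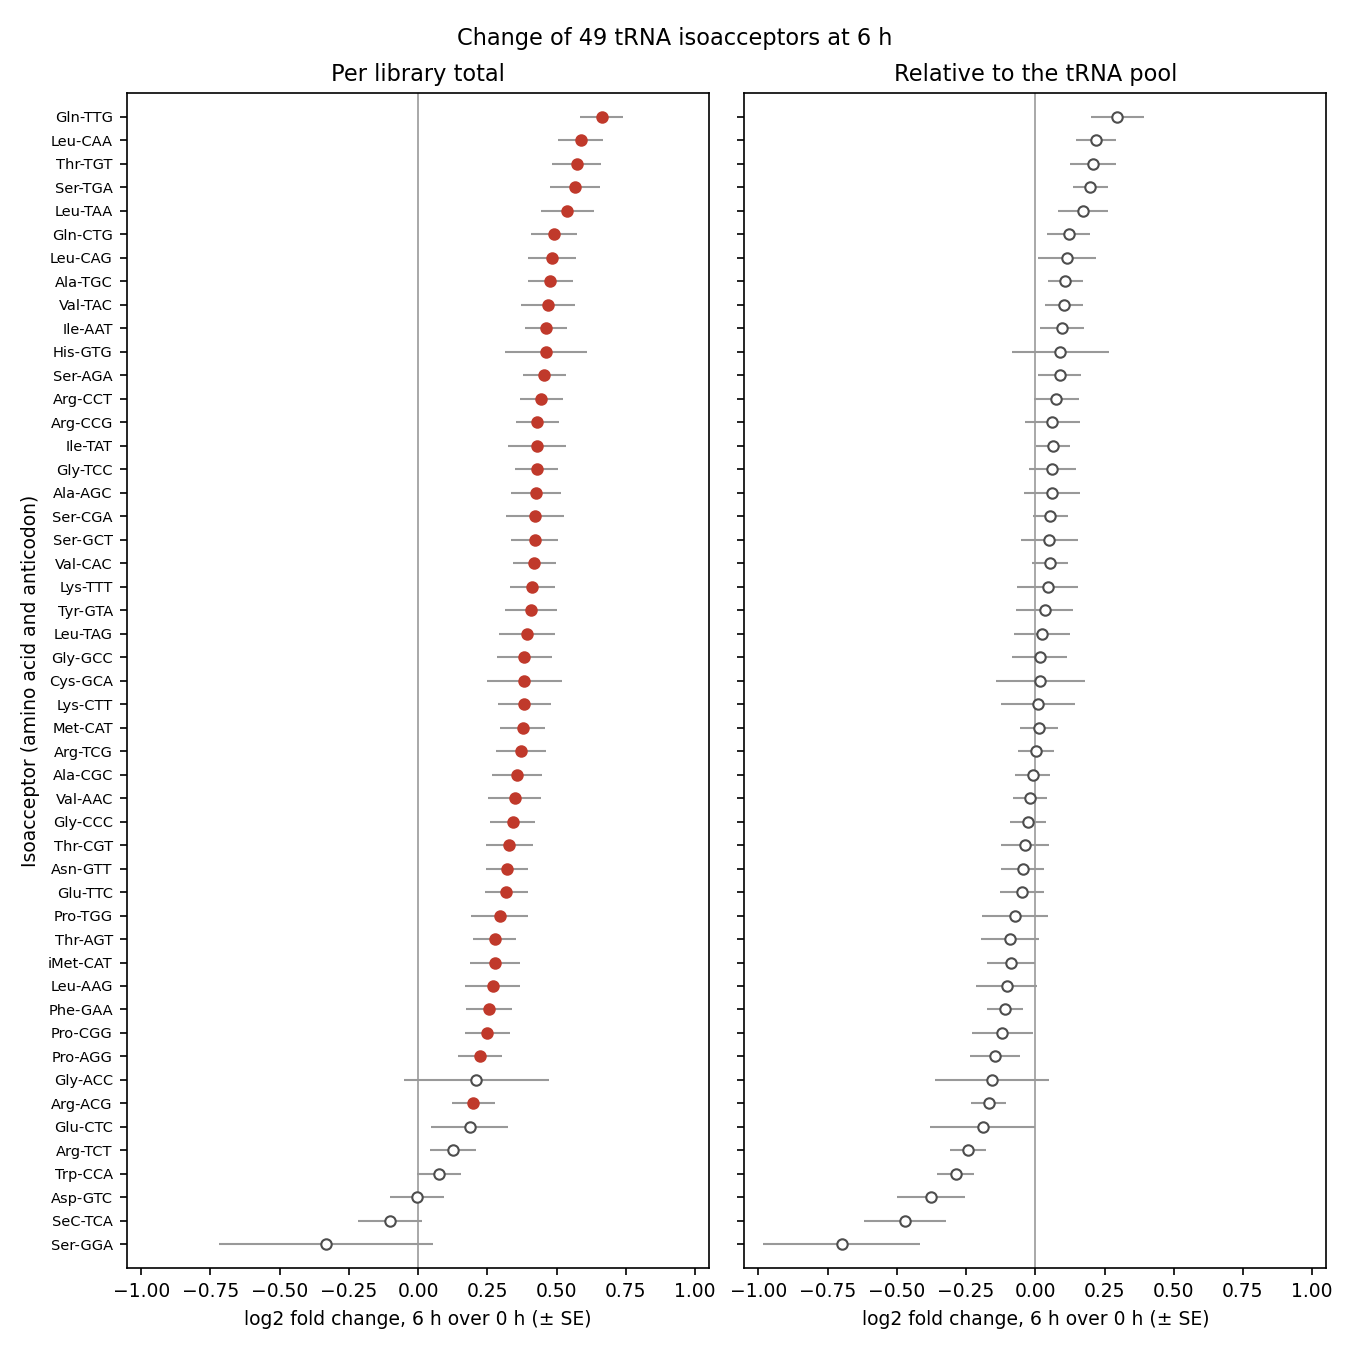
log2 fold change (6 h over 0 h, ± SE) of each of the 49 isoacceptors per library total (left) and relative to the tRNA pool (right), in the same order. Filled points were called at an adjusted p under 0.05. On the left 42 points are filled, all to the right of 0, and on the right none is.

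Gln-TTG had the highest log2 fold change of the 49 isoacceptors on the library scale. This tRNA, which reads the CAA codon, had 13656 and 13484 RPM at 6 h, against 8218 and 8928 RPM at 0 h. Both 6 h libraries exceeded both 0 h libraries, and its log2 fold change was 0.66 ± 0.08 (SE; edgeR adjusted p = 1.36e-08). The other glutamine isoacceptor, Gln-CTG, which reads CAG, was sixth in that order. It had 23954 and 22031 RPM at 6 h, against 16108 and 16657 RPM at 0 h, and it rose by 0.49 ± 0.08 (SE; edgeR adjusted p = 5.11e-06). Together the pair held 4.32% and 4.28% of all tRNA reads at 6 h, against 3.65% and 3.83% at 0 h. Relative to the tRNA pool Gln-TTG kept a positive value of 0.30 ± 0.10 that was not called (edgeR adjusted p = 0.0835).

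The other isoacceptors with the highest changes carry leucine, threonine and serine. Leu-CAA had 11395 and 10486 RPM at 6 h, against 7072 and 7488 RPM at 0 h, a log2 fold change of 0.59 ± 0.08 (SE; edgeR adjusted p = 2.66e-07). Thr-TGT had 11701 and 12134 RPM at 6 h, against 7310 and 8726 RPM at 0 h, a change of 0.57 ± 0.09. Ser-TGA had 6489 and 6175 RPM at 6 h, against 4178 and 4374 RPM at 0 h, also a change of 0.57 ± 0.09. Leu-TAA had 5985 and 5531 RPM at 6 h, against 3775 and 4154 RPM at 0 h, a change of 0.54 ± 0.10. None of the 4 overlapped between the times, and the adjusted p of the last 3 lay between 2.89e-06 and 8.35e-06 in edgeR. Their values on the tRNA scale were 0.22, 0.21, 0.20 and 0.17 in that order, and none was called.

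At the other end, the 5 called isoacceptors with the smallest increase on the library scale had negative values on the tRNA scale. Arg-ACG had 14732 and 14164 RPM at 6 h, against 12420 and 12748 RPM at 0 h, a log2 fold change of 0.20 ± 0.08 (SE; edgeR adjusted p = 0.0151) and of -0.17 on the tRNA scale. Pro-AGG, with 11440 and 10942 RPM at 6 h against 9544 and 9626 RPM at 0 h, changed by 0.22, and by -0.14 on the tRNA scale. Pro-CGG, with 22885 and 21558 RPM at 6 h against 18779 and 18587 RPM at 0 h, changed by 0.25, and by -0.12 on the tRNA scale. Phe-GAA and Leu-AAG changed by 0.26 and 0.27, and by -0.11 and -0.10 on the tRNA scale. The call of Leu-AAG was lost with limma on log2(RPM + 1) (adjusted p = 0.0961).

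Among the 7 isoacceptors without a call, 4 overlapped between the times in RPM. SeC-TCA inserts selenocysteine at recoded stop codons. It had 3385 and 3966 RPM at 6 h, against 4266 and 3623 RPM at 0 h, a log2 fold change of -0.10 ± 0.12 (SE; edgeR adjusted p = 0.411). Without the first 6 h library or the first 0 h library that value lay above 0, at 0.0079 and 0.021. Asp-GTC had 29601 and 26633 RPM at 6 h, against 30369 and 25981 RPM at 0 h. Trp-CCA, the only tryptophan anticodon, had 12611 and 12630 RPM at 6 h, against 11212 and 12717 RPM at 0 h. The tRNA-scale values of these 3 were -0.47, -0.38 and -0.29, and none was called (edgeR adjusted p = 0.0835, 0.0835 and 0.0601).

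Trp-CCA came closest to a call on the tRNA scale. When the spread was estimated from the 4 libraries of 6 h and 0 h alone, 10 isoacceptors were called on the tRNA scale. The 5 higher ones were Gln-TTG, Leu-CAA, Thr-TGT, Ser-TGA and Leu-TAA. The 5 lower ones were Ser-GGA, SeC-TCA, Asp-GTC, Trp-CCA and Arg-TCT. In DESeq2 the 3 higher ones were Gln-TTG, Leu-CAA and Ser-TGA, and the 5 lower ones were SeC-TCA, Asp-GTC, Trp-CCA, Arg-TCT and Arg-ACG. The count of anticodons called relative to the pool thus differed between these fits, and DESeq2 differs from edgeR in its size factors, its estimate of the spread and its test at once.

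**Figure D3:**
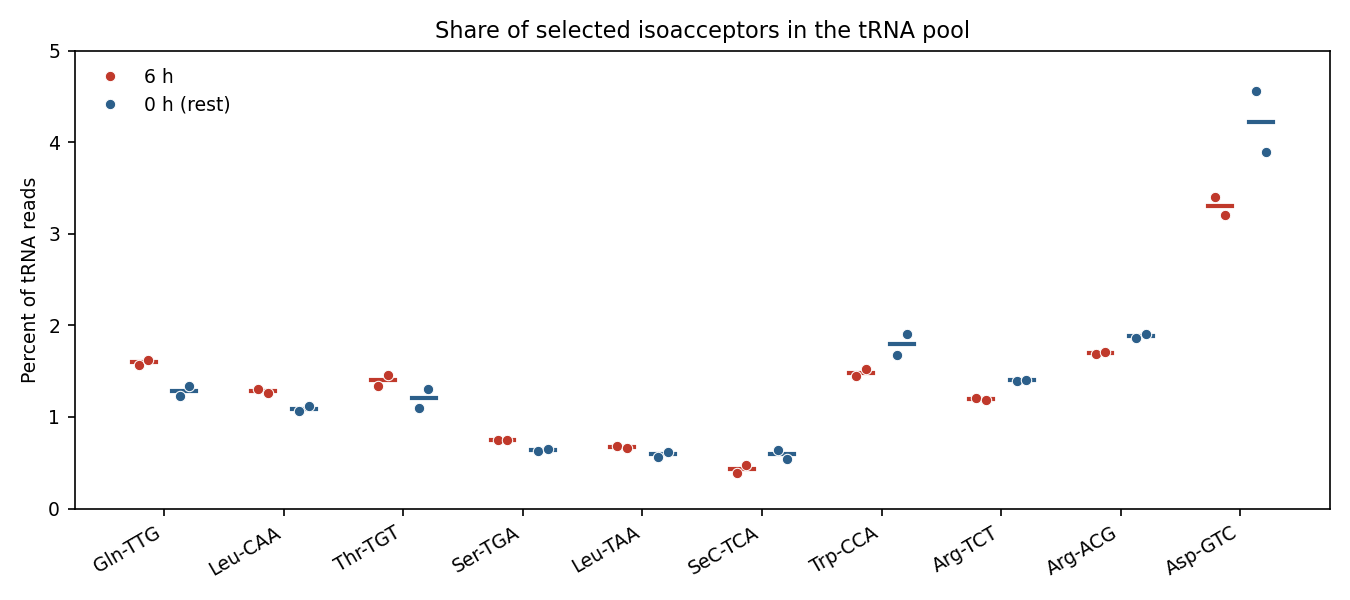
Percent of tRNA reads held by 10 isoacceptors in the 2 libraries of 6 h (red) and the 2 of 0 h (blue), with the mean as a bar. Gln-TTG stands at 1.57% and 1.63% at 6 h, against 1.23% and 1.34% at 0 h, and Asp-GTC at 3.40% and 3.21%, against 4.56% and 3.89%.

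Methionine has separate tRNAs for the start of a protein and for its elongation. The initiator, iMet-CAT, had 29377 and 27730 RPM at 6 h, against 21406 and 25749 RPM at 0 h, a log2 fold change of 0.28 ± 0.09 (SE; edgeR adjusted p = 0.00546). The elongator, Met-CAT, had 10526 and 10573 RPM at 6 h, against 7597 and 8651 RPM at 0 h, a change of 0.38 ± 0.08 (SE; edgeR adjusted p = 0.000127). Neither overlapped between the times. Relative to the tRNA pool they stood at -0.09 and 0.01, so the initiator's share of the pool was 3.37% and 3.34% at 6 h, within the range of 3.21% and 3.86% at 0 h. The call of the initiator was lost without the first 6 h library (adjusted p = 0.0561) or the first 0 h library (adjusted p = 0.16).

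The 5 isoacceptors with the most reads at rest were His-GTG, Glu-CTC, Cys-GCA, Pro-TGG and Asp-GTC. His-GTG had 70878 and 62189 RPM at 6 h, against 49175 and 47462 RPM at 0 h, and rose by 0.46 ± 0.15 on the log2 scale (SE; edgeR adjusted p = 0.00526). Cys-GCA had 53161 and 56266 RPM at 6 h, against 39616 and 44275 RPM at 0 h, and rose by 0.38 ± 0.14 (SE; edgeR adjusted p = 0.00952). Glu-CTC had 52932 and 51165 RPM at 6 h, against 53334 and 38180 RPM at 0 h. Its resting libraries lay further apart than those of the other 4, and its log2 fold change was 0.45 without the first of them and -0.035 without the second. Pro-TGG had 37645 and 35314 RPM at 6 h, against 29476 and 30037 RPM at 0 h, a change of 0.29 on the library scale and of -0.07 on the tRNA scale.

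In each of the 4 libraries 12 anticodons made up 50% of the tRNA reads. The 5 most abundant held 28.6% and 28.5% at 6 h, against 30.3% and 27.9% at 0 h. To turn a 6 h pool into a 0 h pool, between 3.53% and 5.31% of the tRNA reads would have to be reassigned to another anticodon. The libraries of 6 h differed from each other by 2.57% on this measure, and those of 0 h by 4.58%. The distance between 6 h and rest was thus within or just above that between the resting libraries. Single isoacceptors changed place in the order of mean RPM: Gln-TTG was at place 24 at 6 h and at place 33 at 0 h, and Trp-CCA at place 28 at 6 h and at place 21 at 0 h. At 18 h the distance from rest was 5.74% to 7.97%, and at 48 h 6.15% to 7.48%.

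By amino acid, counts are set against the 85.7% of all isoacceptors that rose on the library scale. All 5 leucine, 3 valine and 2 isoleucine anticodons rose, 10 of 10 branched-chain members, with a median log2 fold change of 0.45. The 3 proline anticodons rose with a median of 0.25, and all 3 were negative on the tRNA scale. Proline tRNAs held 8.26% and 8.17% of tRNA reads at 6 h, against 8.67% and 8.73% at 0 h, without overlap. Shares without overlap were also seen for arginine, aspartate, glutamine, glycine, histidine, selenocysteine, serine and tryptophan, and not for the other amino acids. For arginine 4 of 5 anticodons rose, with a median of 0.37 and a range from 0.13 to 0.44. For serine 4 of 5 rose, with a median of 0.42, and serine tRNAs held 5.67% and 5.60% of tRNA reads at 6 h, against 5.27% in both 0 h libraries. The fifth serine anticodon, Ser-GGA, had only 11.3 and 9.91 RPM at 6 h, against 12.3 and 14.4 RPM at 0 h.

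The first anticodon base pairs with the third base of the codon. Over all 49 isoacceptors 42 (85.7%) rose on the library scale, with a median of 0.38, and the counts for each base lie near that share. Where the first base is A in the gene, 8 of 9 isoacceptors rose, with a median log2 fold change of 0.28. With G, 7 of 9 rose and the median was 0.38. With C, 14 of 16 rose and the median was 0.38. With T, 13 of 15 rose and the median was 0.43. Relative to the tRNA pool the medians were -0.09 for A, 0.02 for G, 0.01 for C and 0.06 for T, and 3 of 9, 5 of 9, 9 of 16 and 11 of 15 members lay above 0. No member was called on that scale, and the difference between these groups was not tested.

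Within amino acids the use of the anticodons shifted by a few percentage points at most. Thr-TGT held 30.3% and 30.4% of threonine tRNA reads at 6 h, against 24.6% and 28.2% at 0 h. Gln-TTG held 36.3% and 38.0% of glutamine tRNA reads at 6 h, against 33.8% and 34.9% at 0 h. Leu-AAG held 29.5% and 27.3% of leucine tRNA reads at 6 h, against 32.7% and 30.7% at 0 h. Arg-TCT held 16.1% and 15.7% of arginine tRNA reads at 6 h, against 18.1% and 18.2% at 0 h. The groups did not overlap in these 4, which were among 23 of all 39 such shares (59%) without overlap. Of the 49 isoacceptors, 25 (51%) had no overlap in their percent of all tRNA reads.

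Single tRNA references moved more than the anticodon sums. On the library scale 105 of 190 references (55.3%) were called, 89 (46.8%) of them higher. Of the 168 tRNA references, 89 (53%) rose and 0 fell in edgeR, and 140 (83.3%) had no overlap in RPM. At an unadjusted p under 0.05 in edgeR, 100 rose and 0 fell. DESeq2 with its own size factors called 19 higher and 5 lower. A fit on the 4 libraries of 6 h and 0 h alone called 97 tRNA references higher and 2 lower, Ala-AGC-3 and Met-CAT-5. The count of 105 dropped to 64 without the first 6 h library and to 68 without the first 0 h library. On the tRNA scale 39 of 190 (20.5%) were called, of which 16 (8.42%) rose and 23 (12.1%) fell. All 16 that rose were tRNAs, from 8 anticodons (9.52% of the 168), and 5 tRNAs (2.98%) were among the 23 that fell.

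Most of the 16 were minor isodecoders. Only 1 of them, Gln-TTG-3, was the most abundant reference of its anticodon. Together they held 2.02% and 2.11% of tRNA reads at 6 h, against 1.39% and 1.45% at 0 h, a description only, since they were picked by this comparison. The 49 most abundant references, 1 for each anticodon, held 78.2% and 78.1% at 6 h, against 78.4% and 78.0% at 0 h. Isodecoders of an anticodon can differ by a few bases, and how reads that match several of them were assigned is not given in the sources used here, so values of single references are uncertain.

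Cys-GCA-1 led the references with a mean of at least 100 RPM. It had 530 and 555 RPM at 6 h, against 191 and 197 RPM at 0 h, a log2 fold change of 1.48 ± 0.13 on the library scale (SE; edgeR adjusted p = 0.000309) and of 1.12 on the tRNA scale (edgeR adjusted p = 0.000887). At later times it stood higher still, with 1239 and 1406 RPM at 18 h and 1646 and 1290 RPM at 48 h. The minor references Cys-GCA-21, Cys-GCA-16, Cys-GCA-17, Cys-GCA-4- and Cys-GCA-4 rose on both scales too, with values between 36.3 and 45.8 RPM at 6 h, against 11.6 to 17.6 RPM at 0 h. The main cysteine reference, Cys-GCA-3, with 37175 and 39060 RPM at 6 h against 28343 and 31598 RPM at 0 h, was called on neither scale (edgeR adjusted p = 0.0668 on the library scale). It held 69.9% and 69.4% of Cys-GCA reads at 6 h, against 71.5% and 71.4% at 0 h.

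Ser-CGA, which reads the UCG codon, shifted between its 3 isodecoders. Ser-CGA-3 had 117 and 107 RPM at 6 h, against 45.8 and 44.5 RPM at 0 h, a log2 fold change of 1.31 ± 0.15 on the library scale and of 0.94 on the tRNA scale (edgeR adjusted p = 0.000631 and 0.0013). Ser-CGA-2 rose on both scales, and held 39.3% and 38.8% of the anticodon's reads at 6 h, against 31.4% and 30.7% at 0 h. Ser-CGA-1, the main isodecoder, held 57.3% and 57.8% at 6 h, against 66.6% and 67.5% at 0 h. The anticodon as a whole had a tRNA-scale value of 0.05 ± 0.06 (SE) and was not called. It held 0.388% and 0.373% of tRNA reads at 6 h, against 0.355% and 0.370% at 0 h.

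In 3 arginine and leucine anticodons a minor isodecoder rose on both scales. Arg-CCG-2 had 3043 and 3114 RPM at 6 h, against 1534 and 1466 RPM at 0 h, and a log2 fold change of 1.04 ± 0.10 on the library scale and of 0.67 on the tRNA scale. Its main isodecoder Arg-CCG-3 held 78.2% and 78.0% of the anticodon's reads at 6 h, against 85.5% and 85.2% at 0 h. Arg-TCG-4 had 1249 and 1246 RPM at 6 h, against 599 and 647 RPM at 0 h, and changed by 1.00 ± 0.09 and by 0.64 on the tRNA scale. Leu-TAA-1 had 745 and 724 RPM at 6 h, against 327 and 332 RPM at 0 h, and changed by 1.16 ± 0.08 and by 0.79 on the tRNA scale. The ratios of the 6 h to the 0 h mean RPM were 2.05, 2.00 and 2.23 for these 3 minor isodecoders, which the naming rule chose for a call without overlap.

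Gln-CTG-1 had 217 and 205 RPM at 6 h, against 92.3 and 103 RPM at 0 h, a log2 fold change of 1.11 ± 0.13 on the library scale and of 0.74 on the tRNA scale. Gln-CTG-4 changed by 0.98 and 0.61, and Arg-CCG-1 by 0.80 and 0.43, on the library scale and the tRNA scale in that order. In Gln-TTG it was the main isodecoder that rose on both scales. Gln-TTG-3 had 8591 and 8520 RPM at 6 h, against 4765 and 5114 RPM at 0 h. It rose by 0.79 ± 0.09 on the library scale and by 0.43 on the tRNA scale (edgeR adjusted p = 0.0462). Its partner Gln-TTG-1 rose by 0.47 on the library scale (edgeR adjusted p = 0.00242). On the tRNA scale Gln-TTG-1 stood at 0.10 and was not called. It held 36.8% and 36.6% of Gln-TTG reads at 6 h, against 41.7% and 42.4% at 0 h. Of the 16 references that rose on the tRNA scale, 9 were still called without the second 0 h library and 11 without the second 6 h library. Arg-CCG-1 and Gln-TTG-3 lost their call whichever of the 4 libraries was left out.

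**Figure D4:**
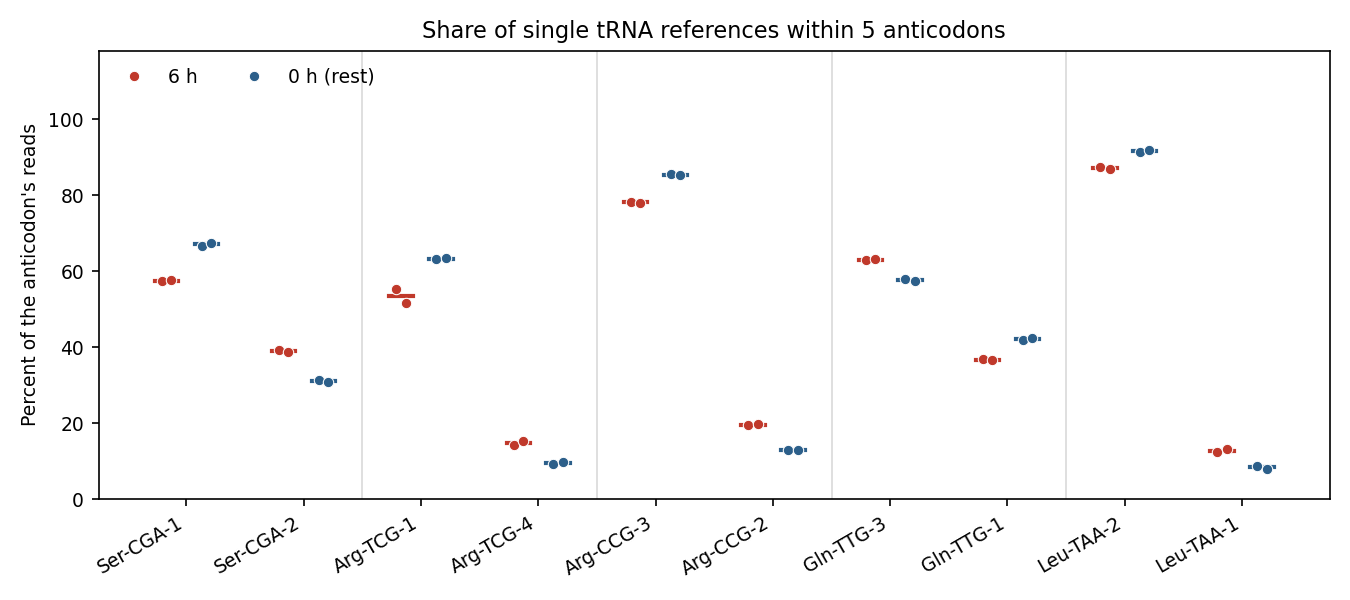
Percent of an anticodon's reads held by 2 references of each of 5 anticodons, in the 2 libraries of 6 h (red) and the 2 of 0 h (blue), with the mean as a bar. Ser-CGA-1 stands at 57.3% and 57.8% at 6 h, against 66.6% and 67.5% at 0 h, and Leu-TAA-1 at 12.5% and 13.1%, against 8.66% and 8.00%.

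The 5 tRNA references that fell on the tRNA scale were Ala-AGC-3, Trp-CCA-5, Trp-CCA-2, Arg-TCT-1 and Val-AAC-5. None of them was called on the library scale. Trp-CCA-2 had 4618 and 4502 RPM at 6 h, against 4259 and 4809 RPM at 0 h, and its tRNA-scale log2 fold change was -0.36 (edgeR adjusted p = 0.00726). Trp-CCA-5 had 4051 and 4082 RPM at 6 h, against 3739 and 4517 RPM at 0 h, and stood at -0.38 on the tRNA scale (edgeR adjusted p = 0.0174). Without the first 6 h, the second 6 h or the second 0 h library, 0 of these 5 were called, and 2 were without the first 0 h library. With the 4 libraries alone, and with a replicate block, all 5 were called, among 12 and 10 tRNA references that fell on the tRNA scale. Over the 42 anticodons with at least 2 tested references, the median spread between the highest and the lowest library-scale log2 fold change was 0.32. In 12 of them a reference was called on the tRNA scale, and in 0 were there calls in both directions.

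Of the 15 spliceosomal, nucleolar and other small nuclear RNAs, 12 fell on the library scale, against 16 (8.42%) of all 190 references. Rnu1a1, a gene of the U1 RNA that recognises 5' splice sites (chromosome 11, 87422867 to 87423030 in GRCm38.p6), had 5410 and 8068 RPM at 6 h, against 26385 and 24822 RPM at 0 h. It fell by 1.93 ± 0.19 on the log2 scale per library total (SE; edgeR adjusted p = 0.000399). Rnu5g, the U5 RNA of the spliceosome (chromosome 9, 65201726 to 65201841), had 4442 and 5241 RPM at 6 h, against 15404 and 14596 RPM at 0 h, and fell by 1.63. Rnu2-10, the U2 RNA that pairs with the branch site, had 21586 and 27869 RPM at 6 h, against 54534 and 49615 RPM at 0 h, and fell by 1.07 ± 0.22 (SE; edgeR adjusted p = 0.00581). All 4 U1 references and all 5 references of U3, a nucleolar RNA needed to process pre-rRNA, fell as well. The copies of U1b and of U3b are near-identical, so their reads cannot be assigned to 1 gene with certainty.

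Of the 15, 0 rose and 3 were not called on the library scale. The 3 were the U7, U11 and U6 RNAs, and U7 and U11 fell on the tRNA scale. Of the 7 rRNA references, 4 fell on both scales. Over all 190 references, 16 (8.42%) fell on the library scale and 23 (12.1%) on the tRNA scale. Rn45s, the precursor, had 21011 and 29368 RPM at 6 h, against 89195 and 94561 RPM at 0 h, and fell by 1.87 ± 0.21 (SE; edgeR adjusted p = 0.000637). Rn28s1 had 15068 and 20801 RPM at 6 h, against 51529 and 55603 RPM at 0 h, and fell by 1.58, and Rn18s fell by 1.74. These RNAs are longer than the size limit of the preparation, so the reads are from fragments, and the 45S reference contains the mature sequences. The share of reads from precursor cannot be told from them. The 5.8S reference, a short RNA, had 1513 and 1922 RPM at 6 h, against 2397 and 3400 RPM at 0 h, and fell by 0.76.

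Grouped by the polymerase that makes them, a grouping chosen after these values were seen, the 4 references of polymerase I held 4.04% and 5.62% of the library reads at 6 h, against 15.4% and 16.6% at 0 h. The 14 references of polymerase II held 3.65% and 4.76% at 6 h, against 11.1% and 10.4% at 0 h. The 4 references made by polymerase III other than tRNA held 4.91% and 6.35% at 6 h, against 6.62% and 6.00% at 0 h, and the times overlapped. U6, the catalytic RNA of the spliceosome, had 11544 and 11666 RPM at 6 h, against 10745 and 9806 RPM at 0 h, a log2 fold change of 0.18 ± 0.15 (SE; edgeR adjusted p = 0.361) and of -0.19 on the tRNA scale. The 3 references of 5S rRNA changed by -0.29 to 0.03 on the library scale and none was called on either scale. The difference between the polymerase groups was not tested, and a p that misses the threshold does not show that U6 and 5S were level.

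**Figure D5:**
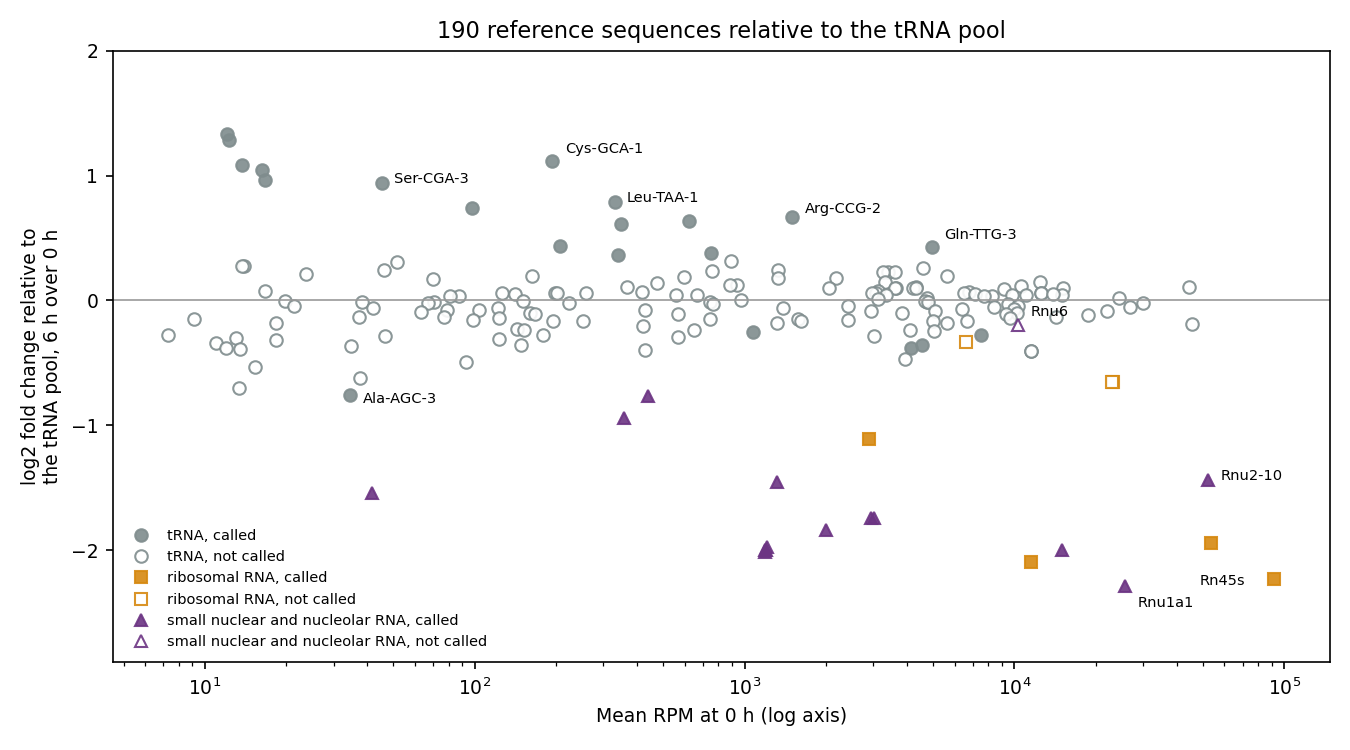
log2 fold change relative to the tRNA pool (6 h over 0 h) of each of the 190 tested references against its mean RPM at 0 h (log axis). Filled marks were called at an adjusted p under 0.05. The 16 filled tRNA marks above 0 have low to middling levels at rest, and the ribosomal, small nuclear and nucleolar marks lie below 0, with U6 (Rnu6) the nearest to it.

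The later time of 18 h was tested against 6 h to ask which isoacceptors went on to change. On the library scale 12 of 49 isoacceptors (24.5%) were higher at 18 h than at 6 h and 1 (2.04%) was lower. On the tRNA scale 0 were higher and 12 lower. The TMM factors set the effective tRNA size of the 18 h libraries at 67171730 and 70699002, against 68200396 and 64455122 tRNA reads. At 6 h it was 67703591 and 71849473, against 70704847 and 74301391 tRNA reads. The tRNA scale thus puts changes from 6 h to 18 h lower than plain shares of tRNA reads do, and these counts carry that offset. SeC-TCA was lower on both scales. It had 1633 and 1374 RPM at 18 h, against 3385 and 3966 RPM at 6 h, a log2 fold change of -1.29 ± 0.12 (SE; edgeR adjusted p = 1.02e-11). Its RPM at 6 h thus overlapped those at rest, while those at 18 h lay far below both. Gln-TTG went on to 18543 and 16865 RPM at 18 h, a further change of 0.38 (edgeR adjusted p = 0.000394) on the library scale that was not called on the tRNA scale (edgeR adjusted p = 0.188).

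The deposited m1A levels of wild-type cells are from libraries labelled 6 h, with 1 pooled value for each of 44 isoacceptors and no replicate. They gave Pearson's r = 0.19 and Spearman's rho = 0.21 with the library-scale log2 fold change at 6 h. Over the 46 isoacceptors with a gene number in the RefSeq annotation of GRCm38.p6, that number had r = 0.03 and rho = -0.06 with the same log2 fold change. The gene number did run along with the resting level, with r = 0.42 and rho = 0.68 against log2 RPM at 0 h. For some isoacceptors the annotated number falls below that of the references, with 1 gene and 3 references for Ile-TAT and 2 and 5 for Lys-TTT. The gene numbers may thus be incomplete. Isoacceptors are not independent replicates, and these values are descriptions across them. The level of an isoacceptor in RPM also depends on how well its tRNA is ligated and reverse transcribed.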

How the data were processed

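For each tRNA-seq library the authors deposited read counts on 242 reference sequences and the same reads scaled to the library total (RPM), per the file headers, and the file names show a BWA alignment. The submitters' processing notes list Bowtie2 2.4.1, featureCounts 1.5.0-p3, HISAT2 2.0.5 and Trim Galore 0.6.6, with the mm10 build, and give no role for any. The deposited m1A table gives counts of coverage, m1A levels in percent, a difference score and a ratio of the genotypes, per the file headers.

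Library totals were recovered as reads × 1e6 / RPM and used as library sizes in edgeR 4.0.16 (glmQLFit, glmQLFTest; R 4.3.3). All 8 libraries (0, 6, 18 and 48 h) shared the estimate of the spread, with time as the only term. Reads were also summed per anticodon, with initiator methionine apart. The filter was a mean of at least 10 RPM, and the threshold an adjusted p of 0.05. Standard errors were taken from the fold change and its F value. Other tables used pandas 2.3.3, and shares were compared by exact permutation. Alternatives were DESeq2 1.42.0, limma 3.58.1 on log2(RPM + pseudocount), other filters, the tRNA scale, fewer libraries and a replicate block. Scripts were tested on simulated data.

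The text names the 5 called isoacceptors at each end of the range of changes, the 8 references each way with a mean of at least 100 RPM and no overlap, methionine and selenocysteine tRNAs, the 5 isoacceptors with the most reads at rest and the 2 most abundant references of each other class. Gln-CTG, Trp-CCA, Arg-TCT, Ser-GGA, Cys-GCA-3 and the other references outside this rule were chosen after their values were seen. The members and lists were chosen with earlier results of these data known. Coordinates are from the RefSeq annotation of GRCm38.p6. The mRNA data of the series were not used here, and no sequence is shown because the references' sequences were not among the sources used here.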

Additional observations from a re-analysis of the deposited data

Results flagged for a closer look

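The contrast of 18 h against 6 h given in the report is also the difference between the changes from rest at those times, since both are measured from the same 0 h libraries. Of the 18 isoacceptors that the naming rule took, 5 passed it on the library scale, among 12 higher and 1 lower of all 49. For SeC-TCA the change at 18 h minus that at 6 h was -1.29 (edgeR adjusted p = 1.02e-11), and on the tRNA scale it was -1.48 (adjusted p = 7.99e-05). For Gln-TTG the difference was 0.38 (adjusted p = 0.000394). For the proline isoacceptors it was 0.26 for Pro-AGG and 0.27 for Pro-CGG (adjusted p = 0.0143 for both) and 0.31 for Pro-TGG (adjusted p = 0.0203). Trp-CCA and Gln-CTG, which the text describes outside that rule, passed as well, with 0.38 (adjusted p = 0.000394) and 0.34 (adjusted p = 0.00299). On the tRNA scale the differences of Gln-TTG, Pro-AGG, Pro-CGG, Pro-TGG, Trp-CCA and Gln-CTG were 0.19, 0.06, 0.08, 0.12, 0.18 and 0.14. None of them was called. The tRNA-scale differences given here, also that of SeC-TCA, carry the offset of that scale at 18 h. They lie lower than plain shares of tRNA reads would put them. In percent of tRNA reads, each of the isoacceptors from Gln-TTG to Gln-CTG in that list was higher in both 18 h libraries than in both 6 h libraries. These shares were not tested between 18 h and 6 h.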

How the results depend on the processing

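For the values named in the text, 417 of the recomputed results kept direction and side of the threshold, 26 lost the call, 3 gained one and 22 turned sign. The scale mattered most. With tRNA reads as the library size 0 isoacceptors were called in place of 42, and with DESeq2 8 (3 higher, 5 lower). For references the counts were 39 (16 higher) on the tRNA scale and 42 (19 higher) with DESeq2, in place of 105 (89 higher). For 18 h against 6 h the tRNA scale gave 0 higher and 12 lower isoacceptors, counts that carry the offset of that scale at 18 h. Leaving out 1 library gave 35 to 42 isoacceptors, 64 to 89 references (50 to 73 higher), and on the tRNA scale 9 to 13 higher and 14 to 17 lower references. Restricting the tRNA-scale fit to the 4 libraries, an alternative added after seeing the data like all combinations on that scale, called 10 isoacceptors (5 higher, 5 lower).

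Of the 46 isoacceptors positive on the library scale, 18 were negative on the tRNA scale. Those among the isoacceptors of the naming rule were -0.17 for Arg-ACG, -0.14 for Pro-AGG, -0.12 for Pro-CGG, -0.11 for Phe-GAA, -0.10 for Leu-AAG, -0.088 for iMet-CAT, -0.19 for Glu-CTC and -0.074 for Pro-TGG. With DESeq2 they were -0.18, -0.16, -0.13, -0.12, -0.12, -0.10, -0.20 and -0.089 in the same order, and -0.0032 for Met-CAT. Both settings change the library sizes by construction. Without 1 library, SeC-TCA stood at -0.22 (6 h, second), 0.0079 (6 h, first) and 0.021 (0 h, first), Asp-GTC at 0.071 (6 h, second) and 0.11 (0 h, first), and Glu-CTC at -0.035 (0 h, second) and 0.45 (0 h, first). None of these values without a library was called, except that of 0.45; the cause was not tested.

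With the replicate block 42 isoacceptors and 108 references (91 higher, 17 lower) were called, and on the tRNA scale 0 isoacceptors and 42 references (14 higher, 28 lower). The labels share replicate numbers across times, but the deviations of same-numbered 6 h and 0 h libraries correlated at 0.10 over isoacceptors and 0.08 over references. Between the other times the correlations ran from -0.42 to 0.39 over isoacceptors and from -0.26 to 0.58 over references. Not every pair was above 0.1, so the numbers were not taken as pairs.

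With 2 libraries per time, the smallest isoacceptor change called was 0.20 (Arg-ACG), and 0.19 (Glu-CTC) and 0.13 (Arg-TCT) were not. Size alone did not set the call, since 0.21 ± 0.26 for Gly-ACC and -0.33 ± 0.39 for Ser-GGA (SE) were not called either. The median standard error of the log2 fold change was 0.09 for isoacceptors and 0.14 for references, and the spread between libraries was far above counting error.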

Other observations

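Val-AAC-6, a valine reference below the level filter and named after its values were seen, had 6 and 8 reads at 6 h, against 84 and 66 reads at 0 h. With no filter on mean RPM its log2 fold change was -3.63 ± 1.07 on the library scale (SE; edgeR adjusted p = 0.0264), and it was then the only tRNA reference called lower. It had 0 and 4 reads at 18 h and 0 and 2 at 48 h. The Sup-TCA isoacceptor, also below the filter, had 2.39 and 1.89 RPM at 6 h, against 1.82 and 1.55 RPM at 0 h.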
